A study of Homo sapiens with 9 samples.

Results

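The genes described here are the 37 genes of human mitochondrial DNA: 13 mRNAs, 2 rRNAs and 22 tRNAs. They were taken as every row of the deposited count table whose Ensembl identifier lies on the mitochondrial chromosome in GENCODE release 29, which gave the same 37 rows as a search for symbols that start with MT-, out of 60448 rows in all. The counts come from RNA sequencing of 9 libraries of cells labelled Huh7, a line from a human hepatocellular carcinoma, grown in DMEM. There were 3 libraries each of the OPA1 knock-down sets N_28 and N_30 and 3 of the control. The labels name lentivirus as the means of knock-down, and give that same text for the control libraries. They give no meaning for the names N_28 and N_30, no vector for the controls and no word on whether each set is a single clone. They also name no separate cultures for the libraries of a group, so each p-value rests on variation among libraries that can be purely technical.

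OPA1 is a dynamin-like GTPase that fuses the inner mitochondrial membrane and shapes its cristae, the folds that carry the respiratory chain. Mitochondrial DNA is a small circle, packed in nucleoids attached to that membrane. Both of its strands are read into long transcripts, from which most mRNAs and rRNAs are released by cutting out the tRNAs that lie between them. The 13 mRNAs encode core subunits of respiratory complexes I, III and IV and of ATP synthase, and the 2 rRNAs and 22 tRNAs serve their translation inside the organelle. The steady level of each RNA is set by transcription and by how long that RNA lasts, and RNA counts do not separate these processes.

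Library totals ran from 16476389 to 22863328 counts. OPA1 stood at 53.2, 55.6 and 57.7 CPM (counts scaled to TMM-adjusted library size) in N_28 libraries 1, 2 and 3, at 64.2, 63.3 and 65.8 CPM in N_30 libraries, and at 82.7, 92.8 and 90.4 CPM in control libraries. Every knock-down library was thus below every control library, at 62.6% of the control mean in N_28 and 72.7% in N_30. Of 8 hepatocyte markers, 3 reached 1 CPM in any library (TF, SERPINA1 and AFP), and 1 of these, TF, reached 5 CPM. At most, a library held 148 counts of TF, 41 of SERPINA1, 26 of AFP and 10 of ALB. TTR had at most 6 counts, APOA1 and HNF4A 4 each, and APOB had 0. Of 4 mesenchymal markers, VIM, COL1A1 and COL1A2 reached 5 CPM and PDGFRB had at most 7 counts in a library.

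Of the 37 genes, 16 passed the filter on low counts and were tested: the 13 mRNAs, both rRNAs and the proline tRNA gene MT-TP. The other 21 were tRNA genes. Of these, 20 had 0 counts in all 9 libraries, and the phenylalanine tRNA gene MT-TF had 8 counts in total and at most 3 in a library. A count of 0 allows up to 3 counts, which is 0.131 CPM in the deepest library and 0.182 CPM in the shallowest, for counting error only. MT-TP held 683 to 1015 counts in each library, or 99.9% of all tRNA counts. The tRNA genes are 59 to 75 bases long, and the labels do not give a fragment size, so the lack of reads for them cannot be read as absence from the cells. The labels do not state a poly(A) selection or an rRNA depletion either.

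MT-TP and MT-TF lie on either side of the control region, the non-coding stretch that holds the promoters. They are shown because they are the 2 tRNA genes with any reads. Both are printed from the GENCODE release 29 transcripts, whose coordinates are on GRCh38: MT-TP at chrM:15956-16023 on the minus strand, beside the threonine tRNA gene MT-TT with 2 bases between them, and MT-TF at chrM:577-647 on the plus strand, directly before MT-RNR1.
MT-TP: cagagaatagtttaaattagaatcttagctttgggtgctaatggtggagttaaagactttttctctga
MT-TF: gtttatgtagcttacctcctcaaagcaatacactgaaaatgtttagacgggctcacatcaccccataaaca

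Several mRNA genes share bases with a neighbour, and a read that falls on both cannot be given to a single gene. MT-ATP8 and MT-ATP6, which encode the 2 mitochondrial subunits of ATP synthase and are carried on a shared mRNA, overlap by 46 bases, and MT-ND4L and MT-ND4 of complex I overlap by 7. The MT-ATP8 gene (chrM:8366-8572, plus strand) is printed whole with the bases shared with MT-ATP6 in capitals. The end of MT-ND4L (chrM:10727-10766) and the start of MT-ND4 (chrM:10760-10799), both on the plus strand, have their shared bases in capitals.
MT-ATP8: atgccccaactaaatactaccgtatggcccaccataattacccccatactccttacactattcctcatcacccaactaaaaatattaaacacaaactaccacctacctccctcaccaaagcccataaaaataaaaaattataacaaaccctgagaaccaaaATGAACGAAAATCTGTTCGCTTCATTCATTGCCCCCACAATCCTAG
MT-ND4L: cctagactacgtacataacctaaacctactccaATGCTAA
MT-ND4: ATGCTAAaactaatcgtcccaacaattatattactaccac

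The overlapping genes had far fewer counts than their partners. MT-ATP8 had 1.66 to 3.55 CPM in the 9 libraries, and MT-ATP6, read from the same mRNA, had 170 to 327 times as many counts per base of gene. MT-ND4 had 4.05 to 4.85 times as many counts per base as MT-ND4L. The values of MT-ATP8 and MT-ND4L are therefore not read as levels of their mRNAs, and part of the reads of each pair may have been set aside or moved by the counting, whose rules the labels leave out.

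A second overlap is with nuclear DNA, which holds old copies of mitochondrial genes. Of 404 such copies in the table, 60 had any read and 3 had a mean of at least 5 CPM, all 3 in a row on chromosome 1. MTATP6P1 (chromosome 1, 633696 to 634376) took 10.8 to 12.5% as many counts as MT-ATP6, MTND2P28 (629640 to 630683) took 3.36 to 4.06% as many as MT-ND2, and MTCO1P12 (631074 to 632616) took 0.210 to 0.267% as many as MT-CO1. MTATP6P1 is as long as MT-ATP6, 681 bases, and differs from it at 10 positions, the first 5 of them G19A, C129T, A151C, A175G and A192G, counted from base 1 of MT-ATP6 with its base first. Of the 632 windows of 50 bases in MTATP6P1, 295 are also in MT-ATP6. A read of at most 50 bases within one of these cannot be told apart by sequence, while a longer read may reach a differing base. The first 200 bases of the mitochondrial gene (chrM:8527-8726) and of the copy (chr1:633696-633895), both on the plus strand, are set side by side with the differing bases in capitals.
MT-ATP6: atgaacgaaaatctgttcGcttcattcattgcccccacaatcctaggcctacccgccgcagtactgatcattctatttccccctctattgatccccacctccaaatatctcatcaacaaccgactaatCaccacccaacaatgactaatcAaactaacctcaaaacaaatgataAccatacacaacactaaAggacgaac
MTATP6P1: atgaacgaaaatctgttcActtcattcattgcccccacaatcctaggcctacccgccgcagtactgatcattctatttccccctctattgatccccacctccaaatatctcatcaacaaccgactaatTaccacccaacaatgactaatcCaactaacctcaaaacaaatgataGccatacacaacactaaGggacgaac

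The other copies of that row on chromosome 1 had few reads or none over all 9 libraries, although they too share windows with their parent genes. MTCO2P12 had 10 counts with 29.1% of its windows shared with MT-CO2, and MTCO3P12 had 10 with 45.2% shared with MT-CO3. MTND1P23 had 22 counts with 61.9% shared with MT-ND1, and MTATP8P1 had 0 with 8.23% shared with MT-ATP8. The share of windows that a copy holds in common thus did not order the copies by their counts. The chromosome 1 copies were set against the knock-downs as well: MTATP6P1 had log2 fold changes of 0.02 in N_28 and 0.04 in N_30, MTND2P28 of -0.02 and -0.11, and MTCO1P12 of -0.13 and -0.14, and none of these passed (lowest adjusted p = 0.716, edgeR's quasi-likelihood test).

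Together the 37 genes held 3.90, 3.91 and 3.30% of all counts in N_28 libraries 1, 2 and 3, 4.28, 3.53 and 3.33% in N_30 libraries, and 4.14, 4.25 and 3.34% in control libraries. The 3 groups overlapped, with means of 3.70 ± 0.352% in N_28, 3.72 ± 0.503% in N_30 and 3.91 ± 0.495% in control (SD, n = 3 each), and the differences between means were smaller than the SDs. The widest 95% interval of a single library (Wilson, counting error only) was 4.28 to 4.29%, much narrower than the spread between libraries. The mRNAs took 81.1 to 83.6% of the mitochondrial counts and the rRNAs 16.3 to 18.8%. Fewer cells rich in mitochondria and less mitochondrial RNA per cell cannot be told apart in bulk counts.

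**Figure D1:**
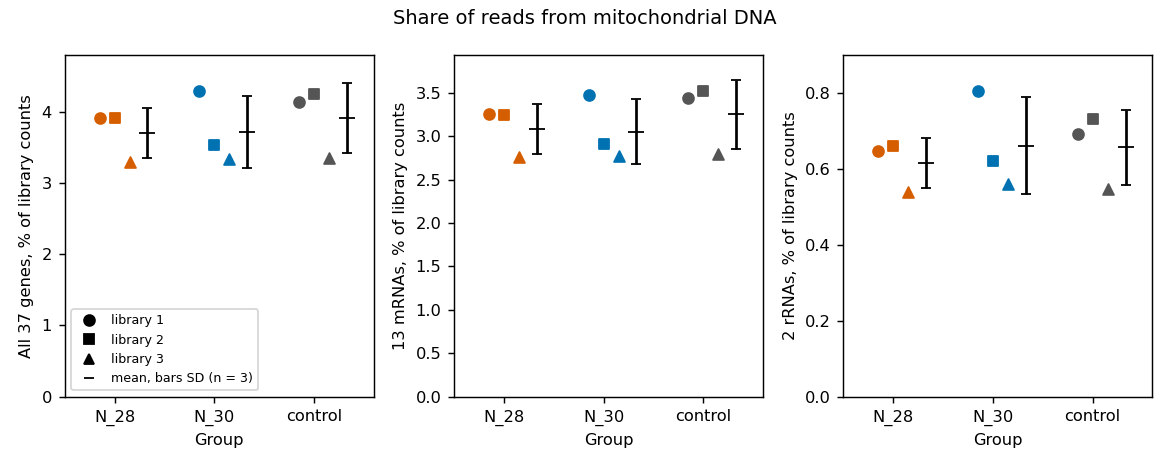
Share of library counts (percent) from all 37 mitochondrial DNA genes, the 13 mRNAs and the 2 rRNAs, by group. Points are libraries with a symbol for each library number, and bars show mean and SD over 3 libraries. The groups overlap in all panels, and library 3 is the lowest of its group in each, at 3.30% in N_28, 3.33% in N_30 and 3.34% in control for all 37 genes.

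MT-CO1, the catalytic subunit of complex IV, was the gene with the most counts of all 60448 rows in each of the 9 libraries. It stood at 10535, 10508 and 8784 CPM in N_28 libraries 1, 2 and 3, at 11116, 9119 and 8735 CPM in N_30 libraries and at 11449, 11496 and 8879 CPM in control libraries. The groups overlapped, and the lowest library of each was number 3. Of the 20 rows with the most counts in a library, 5 to 7 were mitochondrial. Among the mRNAs, complex IV took 49.6 ± 0.437% of counts in N_28, 50.02 ± 0.216% in N_30 and 50.8 ± 0.819% in control. The 7 complex I mRNAs took 39.5 ± 0.530% in N_28, 39.5 ± 0.0335% in N_30 and 38.8 ± 1.04% in control (SD, n = 3 each). MT-CYB, the mitochondrial subunit of complex III, took 4.69 to 4.97% over all libraries. The ATP synthase pair took 5.93 ± 0.0915% in N_28, 5.65 ± 0.127% in N_30 and 5.51 ± 0.200% in control. For this pair every N_28 library (5.86 to 6.03%) was above every N_30 and control library (5.32 to 5.79%). The nuclear copy MTATP6P1 had 10.9 to 11.06% as many counts as MT-ATP6 in N_28, 11.3 to 12.5% in N_30 and 10.8 to 11.3% in control. Its part in the share of this pair was not tested. For complex IV every N_28 library (at most 49.97%) was below every control library (at least 50.02%). For complex I and MT-CYB, N_28 and control overlapped. These shares were not tested.

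Levels are compared between genes as CPM per kb of gene. As the labels state neither a poly(A) selection nor an rRNA depletion, the places of the rRNAs and of MT-TP hold for counts only. They are not read as amounts in the cells. In control libraries MT-CO1 was first with 6879 ± 971 CPM per kb, above MT-CO2, the complex IV subunit that takes up electrons from cytochrome c, with 4990 ± 696 (SD, n = 3). The large rRNA MT-RNR2 with 3655 ± 573, the complex I subunit MT-ND4 with 3439 ± 343, MT-CO3 of complex IV with 3173 ± 398, MT-ATP6 with 2627 ± 402 and MT-ND1 with 2238 ± 190 CPM per kb came next. In each adjoining pair of these 5 the ranges of the control libraries overlapped. Compared within a library, MT-ND4 was above MT-CO3, MT-CO3 above MT-ATP6 and MT-ATP6 above MT-ND1 in 9 of 9 libraries, while MT-RNR2 was above MT-ND4 in 6 of 9. MT-ND2 (1687 ± 159), MT-ND3 (1496 ± 182), MT-ND6 (1435 ± 197), MT-CYB (1383 ± 173) and MT-ND5 (1337 ± 184 CPM per kb) came after them, again with overlapping ranges between neighbours. Within libraries MT-ND2 was above MT-ND3 in 9 of 9, MT-ND3 above MT-ND6 in 7, MT-ND6 above MT-CYB in 6 and MT-CYB above MT-ND5 in 6. The small rRNA MT-RNR1 was at 894 ± 108 CPM per kb and MT-TP at 621 ± 150. The reads assigned to MT-ND4L came to 758 ± 105 CPM per kb, which is not placed in the order because of its overlap with MT-ND4. MT-ND4 and MT-ATP6 are placed, although reads of their overlaps, and reads given to MTATP6P1, may be missing from their counts.

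MT-ND6, a complex I subunit, is the 1 mRNA encoded on the strand opposite to the other 12. It stood at 712, 743 and 607 CPM in N_28, 819, 669 and 604 CPM in N_30 and 810, 816 and 634 CPM in control libraries 1, 2 and 3. Since it is not stated whether counting used strand, reads of the long transcript of the other strand that cross this stretch may be among them. Per base, MT-ND5 beside it had 0.906 to 1.02 times the counts of MT-ND6 over all libraries. With strand use not stated, these counts do not compare the levels of the 2 RNAs.

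**Figure D2:**
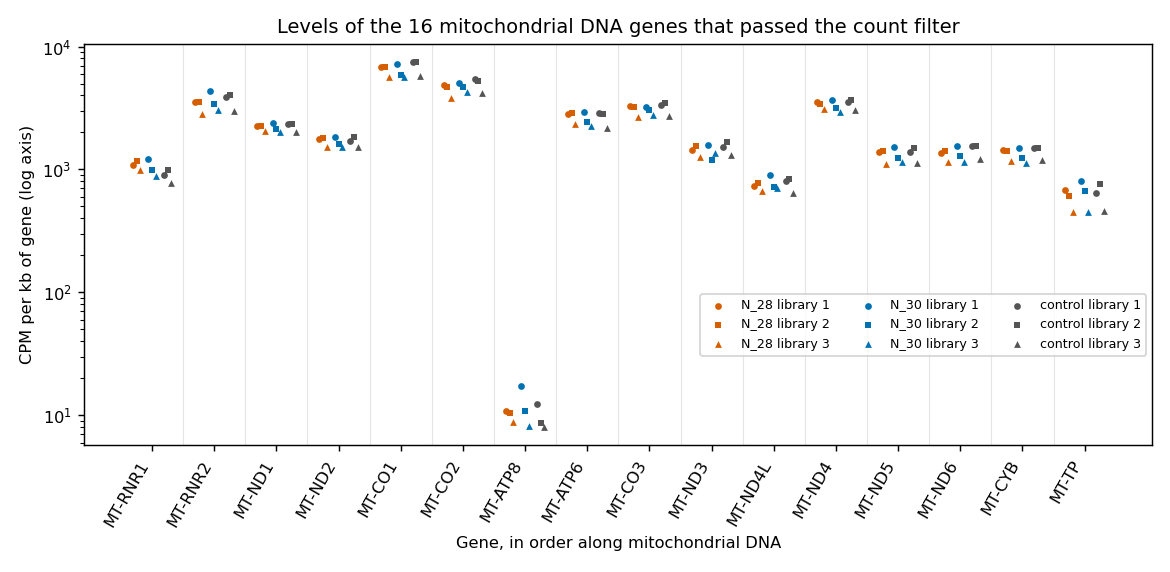
Level of each tested gene in CPM per kb of gene (log axis), in order along mitochondrial DNA, for every library of N_28, N_30 and control. Symbols mark the library number. MT-CO1 is highest, MT-ATP8 lies far below the rest at about 10 CPM per kb, and the groups overlap for each of the 16 genes.

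In N_28 against control, 0 of the 16 tested genes passed edgeR's quasi-likelihood test at a Benjamini-Hochberg adjusted p under 0.05, where 10.2% of all 15019 genes passed. MT-RNR1 was the 1 gene with an unadjusted p under 0.05, and DESeq2 called 0 as well. The log2 fold changes of the 13 mRNAs ran from -0.16 for MT-CO2 to 0.06 for MT-ATP8, with 10 below 0 and a median of -0.04, beside a median of -0.00146 over all genes tested. Without MT-ATP8, the 95% intervals of the mRNAs together spanned -0.39 to 0.29, so changes beyond that range lay outside the interval of each of these 12. MT-ND1, the complex I subunit that helps to form the quinone site, had the narrowest interval, -0.20 to 0.14 around a log2 fold change of -0.03.

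In N_30 against control, 0 of the 16 passed by edgeR and 0 by DESeq2, where 0.866% of all genes passed by edgeR, and 0 had an unadjusted p under 0.05. The mRNAs ran from -0.14 for MT-CO1 to 0.30 for MT-ATP8, with 11 of 13 below 0 and a median of -0.07, beside -0.000667 over all genes. MT-ATP8 rests on 35 to 59 counts per library, and its SE was 0.27. Without it, the 95% intervals spanned -0.38 to 0.27, the upper end being that of MT-ND4L. Both sets of changes share the 3 control libraries, so the like signs of N_28 and N_30 are not independent of each other. The median over the 16 genes was -0.05 in N_28, and it was 0.03 without N_28 replicate 3 and -0.15 without control replicate 3. In N_30 the median was -0.05 as well, with 0.02 without N_30 replicate 3 and -0.17 without N_30 replicate 1.

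With the N_28 and N_30 means averaged and set against control, 0 of 16 passed by edgeR and by DESeq2, against 1.78% of all genes by edgeR, and 1 had an unadjusted p under 0.05, again MT-RNR1. Of the 13 mRNAs, 12 were below 0, with a median of -0.06. The lowest were MT-CO2 at -0.13, MT-ND6 at -0.12 and MT-CO1 at -0.11 on the log2 scale. In N_30 against N_28, 0 of 16 passed by both tools, with 0 at an unadjusted p under 0.05, although 18.3% of all genes passed by edgeR. The 12 mRNAs other than MT-ATP8 lay between -0.10 and 0.10, with 95% intervals that spanned -0.35 to 0.33. MT-ND4L, whose counts are not read as a level, set the upper end of both ranges.

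**Figure D3:**
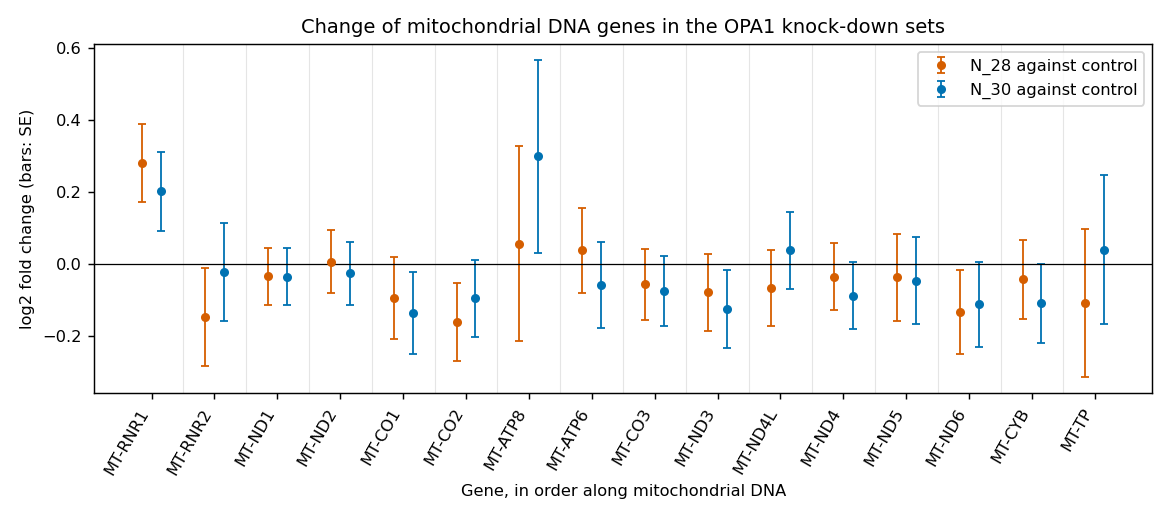
Log2 fold change against control with its standard error (bars) for the 16 tested genes in order along mitochondrial DNA, N_28 left of N_30. MT-RNR1 is above 0 in both sets, at 0.28 and 0.20, MT-ATP8 has the widest error, and none of the genes passed the adjusted threshold.

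The 2 rRNAs are made from a shared stretch of transcript, in the order MT-RNR1, the small subunit RNA, then MT-RNR2, the large subunit RNA, with the valine tRNA gene between them. MT-RNR1 stood at 1045, 1118 and 946 CPM in N_28 libraries 1, 2 and 3, at 1156, 937 and 851 CPM in N_30 and at 859, 953 and 746 CPM in control. For the same library number it was higher in N_28 than in control all 3 times. In N_30 it was above the control of its number for libraries 1 and 3 and not for library 2, and the groups overlapped. The log2 fold change was 0.28 (SE 0.11, 95% interval 0.05 to 0.52) in N_28, with an adjusted p of 0.128, and 0.20 (SE 0.11, interval -0.03 to 0.44) in N_30, with an adjusted p of 0.514, by edgeR's quasi-likelihood test. With library number added as a block, 1 of the 16 genes passed in N_28 (15.3% of all genes) and in both knock-downs together (4.1%), and it was MT-RNR1 each time. With that block 0 of 16 passed in N_30 against control (2.82%) and in N_30 against N_28 (24.5%).

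MT-RNR2 stood at 5511, 5510 and 4427 CPM in N_28 libraries 1, 2 and 3, at 6813, 5303 and 4721 CPM in N_30 and at 6098, 6320 and 4674 CPM in control. The groups overlapped, and its log2 fold changes were -0.15 (SE 0.14) in N_28 and -0.02 (SE 0.14) in N_30. The rRNAs therefore had fold changes of opposite sign, and their ratio is described next, a measure chosen after these values were seen and so given with no test.

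MT-RNR1 had 19.0, 20.3 and 21.4% as many counts as MT-RNR2 in N_28 libraries 1, 2 and 3, 17.0, 17.7 and 18.0% in N_30 libraries and 14.1, 15.1 and 15.97% in control libraries. The 3 groups did not overlap, with N_28 highest, N_30 between and control lowest. The means were 20.2 ± 1.20% in N_28, 17.6 ± 0.540% in N_30 and 15.0 ± 0.940% in control (SD, n = 3 each). Between libraries of the same number the gap to control was 4.88, 5.22 and 5.40 percentage points in N_28 and 2.88, 2.598 and 2.07 points in N_30. In each group library 3 had the highest ratio, so this ratio differs with library number too. A selection of RNA in making the libraries, which the labels leave out, may also enter the rRNA counts, and its part was not tested.

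Each rRNA was then set against the mRNAs. As a share of the summed CPM of the 13 mRNAs, MT-RNR1 was at 3.18, 3.42 and 3.44% in N_28 libraries, 3.36, 3.20 and 3.09% in N_30 libraries and 2.49, 2.72 and 2.69% in control libraries, with no overlap between knock-down and control. MT-RNR2 was at 16.8, 16.9 and 16.1% of that sum in N_28, 19.8, 18.1 and 17.1% in N_30 and 17.7, 18.0 and 16.8% in control, and these overlapped. Leaving out MT-ATP8 and MT-TP, there are 91 pairs among 14 genes, and in 17 of them the ratio of the pair did not overlap between the 6 knock-down and the 3 control libraries. All 13 pairs with MT-RNR1 were among these 17, with MT-RNR1 higher in the knock-down libraries each time, beside 4 of the 78 other pairs (5.13%). These 13 pairs share MT-RNR1, and the levels of their other genes move together between libraries, so they are not 13 separate observations. Without MT-ND4L, whose counts may be changed by its overlap with MT-ND4, the same held for 12 of 12 pairs with MT-RNR1 and 3 of 66 others. For single genes rather than ratios, 0 of the 16 had libraries without overlap in this comparison, where 3.22% of all genes tested did. The same count was 0 of 16 in N_28 against control (28.7% of all genes), in N_30 against control (15.2%) and in N_30 against N_28 (36.4%). The ratio kept all 3 groups apart in 5 of the 91 pairs. These were MT-RNR1 with MT-RNR2, MT-ND4L or MT-ND6, and MT-ATP6 with MT-CO1 or MT-CYB, so such separation was not particular to the rRNAs. Ratios within a library show unequal change between RNAs, not which of them changed.

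**Figure D4:**
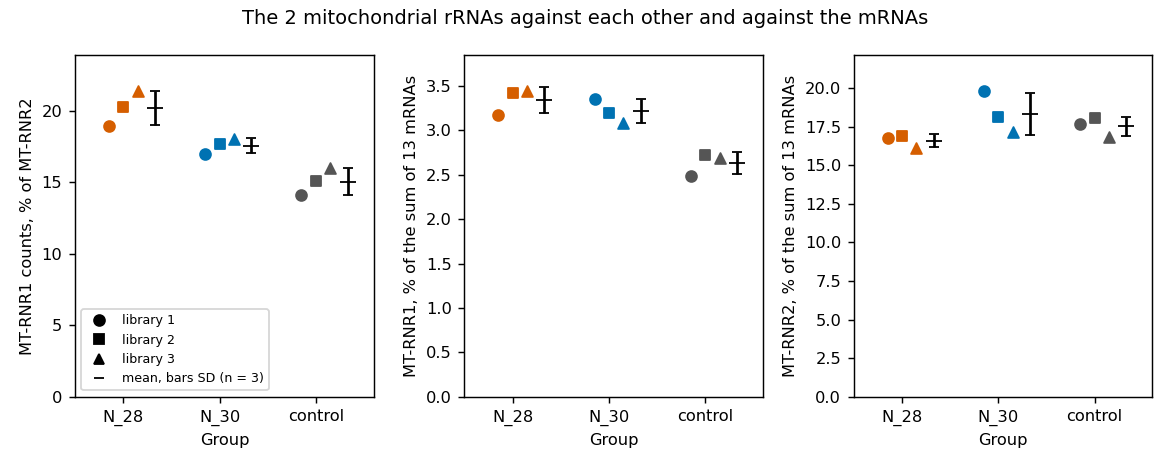
MT-RNR1 counts as percent of MT-RNR2 counts (left), and MT-RNR1 (middle) and MT-RNR2 (right) as percent of the summed CPM of the 13 mRNAs, by group. Points are libraries, symbols are library numbers, and bars are mean and SD over 3 libraries. In the left panel N_28 lies at 19.0 to 21.4%, N_30 at 17.0 to 18.0% and control at 14.1 to 15.97%, while the right panel overlaps.

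Levels of these genes also differed by library number. In a fit with terms for group and library number, 10 of the 16 genes differed by number at an adjusted p under 0.05 (edgeR's quasi-likelihood F test with 2 degrees of freedom), against 3.04% of all 15019 genes, and 15 had an unadjusted p under 0.05. The 10 that passed at the adjusted threshold were 8 mRNAs (MT-CO1, MT-CO2, MT-CO3, MT-ATP6, MT-ND4, MT-ND5, MT-ND6 and MT-CYB), MT-RNR2 and MT-TP. The lowest adjusted p was that of MT-TP, 0.000479, and MT-RNR2 had 0.00473, MT-CO2 0.00489 and MT-CO1 0.0169. The 6 that missed the threshold in edgeR's test, MT-RNR1, MT-ND1, MT-ND2, MT-ATP8, MT-ND3 and MT-ND4L, had adjusted p-values of 0.0683 to 0.344. Leaving out control replicate 3 left 1 call (MT-TP), leaving out N_30 replicate 3 left 2, and leaving out N_28 replicate 3 left 4. Leaving out any of the other 6 libraries gave 9 to 14. With all libraries, DESeq2 called 13 of the 16 by number, against 2.66% of all genes. The labels do not say what the numbers mark, and the difference of libraries numbered 3 from the rest was known from earlier results on these data.

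Library 3 was the lowest of its group in all 3 groups for 15 of the 16 genes, where 9.27% of all genes tested had that pattern. The exception was MT-ND3 in N_30, where library 2 was lowest, at 410 CPM beside 471 CPM in library 3. Against the mean of libraries 1 and 2, library 3 had a median log2 difference of -0.26 in N_28, -0.23 in N_30 and -0.35 in control over the 16 genes, and of -0.00599, -0.0111 and -0.00613 over all genes tested. MT-TP differed most of the genes called, by -0.51 in N_28, -0.72 in N_30 and -0.60 in control. It stood at 30.5 CPM in library 3 of N_28 beside 46.0 and 41.0 CPM in libraries 1 and 2, at 30.4 beside 54.6 and 45.7 CPM in N_30, and at 31.5 beside 43.4 and 51.8 CPM in control.

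Depth moved with this pattern. Library 3 was the deepest of each group, with 22863328 counts beside 21020319 and 18316731 in N_28, 22400589 beside 16476389 and 20026915 in N_30, and 22164035 beside 20539140 and 19510555 in control. The library with the fewest counts, N_30 library 1, had the highest mitochondrial share, 4.28%. The order by depth did not hold throughout. N_28 library 2, with 18316731 counts, had 3.91%, beside 3.90% in the deeper N_28 library 1 and 4.14% in the deeper control library 1. The part of depth in the result was not tested. Within groups the genes moved together: over the 91 pairs of the 14 genes, the deviations of log2 CPM from the group mean correlated with a median Pearson r of 0.96 (range 0.76 to 0.996, 9 libraries that share depth and scaling). OPA1 itself did not pass by number (adjusted p = 0.611, same test). Of the 3 nuclear copies tested, MTATP6P1 and MTND2P28 passed by number (adjusted p = 0.0117 and 0.0173) and MTCO1P12 did not (0.0572, same test).

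**Figure D5:**
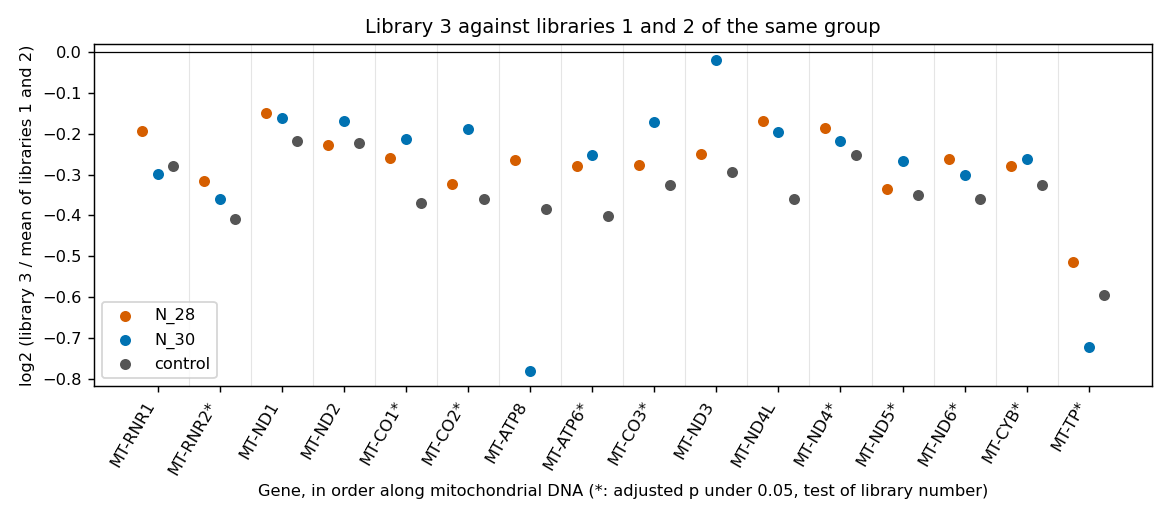
Log2 ratio of library 3 to the mean of libraries 1 and 2 of the same group for the 16 tested genes, in order along mitochondrial DNA. Each point is a group. All points lie below 0, from -0.02 for MT-ND3 in N_30 to -0.78 for MT-ATP8 in N_30, and an asterisk marks the 10 genes that passed the test of library number.

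Nuclear genes that make the mitochondrial RNAs or whose products join the encoded proteins were counted beside them. Lists of 148 such genes, chosen with earlier results of these data known, had 145 tested members, of which 2 rose and 2 fell in N_28, and 1 rose and 0 fell in N_30 (edgeR's quasi-likelihood test, adjusted over all genes tested). These calls were 2.76% of the list in N_28, where 10.2% of all genes tested passed, and 0.690% in N_30, where 0.866% of all genes passed. DESeq2 called 4 of the 145 in N_28, against 10.7% of all genes, and 1 in N_30, against 1.78% of all genes. An unadjusted p under 0.05 was found for 12.4% of the list in N_28 and 6.21% in N_30, against 23.9% and 11.4% of all genes. By library number 0 passed with edgeR and 0 with DESeq2, where 3.04% and 2.66% of all genes passed, and 8 of the 145 had an unadjusted p under 0.05. Of 15 genes of mitochondrial transcription and its regulators, 0 passed against control with either tool, and 1 had an unadjusted p under 0.05 in each knock-down. Of 37 genes of RNA processing and decay, PDE12, which removes poly(A) tails from mitochondrial RNAs, fell to 41.9 ± 1.74 CPM in N_28, against 49.6 ± 3.01 CPM in control (log2 fold change -0.25, adjusted p = 0.0300). It was higher in N_30 than in N_28 by 0.34 (adjusted p = 0.00267). Of 19 genes of DNA replication and upkeep, the exonuclease MGME1 fell to 51.4 ± 0.466 CPM in N_28, against 59.8 ± 2.41 CPM in control (-0.22, adjusted p = 0.0328, same test).

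Nuclear subunits of the complexes are listed by complex. Of 35 of complex I, 0 passed against control with edgeR or DESeq2, with 2 at an unadjusted p under 0.05 in N_28 and 3 in N_30. Of 9 of complex III, 0 passed with either tool, with 3 at an unadjusted p under 0.05 in N_28 and 1 in N_30. Of 12 of complex IV, COX7C rose to 176 ± 2.47 CPM in N_28 and 181 ± 6.72 CPM in N_30, against 143 ± 6.55 CPM in control, with log2 fold changes of 0.31 and 0.34 (adjusted p = 0.00257 and 0.00871). The 3 complex IV mRNAs of mitochondrial DNA had log2 fold changes of -0.16 to -0.06 in N_28 and -0.14 to -0.07 in N_30, and none of them passed. Of 18 of ATP synthase, ATP5F1D rose in N_28 by 0.26 (adjusted p = 0.0431, same test). Between the knock-downs, 5 of the 145 (3.45%, against 18.3% of all genes) were higher in N_30 than in N_28 and 0 lower: PDE12, NDUFB1 (0.24), UQCR10 (0.30), ATP5F1E (0.22) and ATP5MK (0.21 on the log2 scale).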

How the data were processed

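The authors deposited raw read counts per gene under human Ensembl identifiers, 60448 rows in 9 columns, with no normalization per the file header and values. A mouse build, mm8, stands in the submitters' processing notes, although all rows are human genes. Aligner, counter, annotation and strand use: not given in the sources used here. Positions and sequences are those of GENCODE release 29 (GRCh38), matched by identifier or symbol. Totals were 16476389 to 22863328 counts per library.

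Counts were scaled by TMM, filtered with filterByExpr (minimum count 10, 15019 genes left) and fitted in edgeR 4.0.16 (R 4.3.3) over all 9 libraries with quasi-likelihood tests, adjusted by Benjamini-Hochberg over all tested genes and called at 0.05. A second fit added library number. SEs come from the fold change and the F statistic, and 95% intervals from the SE and the fit's degrees of freedom. In simulated N_28 against control counts of 15019 genes, 63.9% of 97 genes changed by 0.5 and 83.5% of 103 changed by 1 on the log2 scale were called. The changed genes were drawn at random from all genes tested, so these rates are not those of the mitochondrial genes. The members and lists were chosen with earlier results of these data known, so no p-value is given for shares or ratios over the members. Named were the 13 mRNAs, both rRNAs and each tRNA that passed the filter, OPA1, list genes called in a comparison and nuclear copies with a mean of at least 5 CPM. The 4 other copies of the chromosome 1 row, MT-TF and MT-TT, the ratio of the rRNAs and the pairs of members were chosen after values were seen. The chi-square per gene between libraries of a group was 3.64 to 12.7, and none was taken as a duplicate. Deviations of same-numbered libraries 1, 2 and 3 correlated at 0.122, 0.169 and 0.306 between N_30 and control. The values were -0.0588, 0.0358 and 0.142 between N_28 and control, and 0.0268, -0.0253 and 0.235 between N_30 and N_28. Libraries of unlike number reached 0.166 (N_30 library 2 with N_28 library 1), so most same-numbered pairs did not stand out. The highest values, 0.306 and 0.235, were both between libraries numbered 3. Alternatives were RLE factors, library totals, library sizes without mitochondrial rows, no filter, DESeq2 1.42.0, only the groups compared, a block of library number and each library left out.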

Additional observations from a re-analysis of the deposited data

How the results depend on the processing

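The count of 0 mitochondrial genes called in N_28 against control became 1 with no low-count filter and 1 with library number as a replicate block, MT-RNR1 in both. The same 2 settings gave 1 for both knock-downs against control, again MT-RNR1. With the block, MT-RNR1 had log2 fold changes of 0.28 (adjusted p = 0.0101) in N_28 and 0.24 (adjusted p = 0.0321) in both, while 15.3% and 4.1% of all genes were called, and in N_30 against control it had 0.20 (adjusted p = 0.160), all from edgeR's quasi-likelihood test. The block changed no other call of a mitochondrial gene. With no filter its adjusted p was 0.000298 in N_28 and 0.00145 in both, and settings other than these 2 gave 0.0583 to 0.352 in N_28. In N_30 against control and N_30 against N_28 the count was 0 under every setting run. The 10 genes called by library number ran from 1 to 14 when a library was left out. They were 13 with DESeq2, 9 or 10 under the other scalings, and 15 of 17 tested with no low-count filter. Leaving out a library gave differences in the mitochondrial share of -0.492 to -0.00459 percentage points in N_28 and -0.479 to -0.00142 in N_30 against control, and -0.272 to 0.206 in N_30 against N_28. The last was 0.0127 with all libraries, and -0.0323 with mRNA rows only. For the rRNA ratio the differences were 4.59 to 5.79 points in N_28 and 2.04 to 2.98 in N_30 against control. The other scalings, filters and tools do not enter a ratio of counts. Of 1008 recomputed fold changes of single genes, 97 changed sign, 94 of them on leaving out a library, and 0 of these were called. The 130 genes called in N_30 were 267 with DESeq2, 523 unfiltered and 424 blocked, and the 268 in both were 408, 705 and 616 in that order. Leaving out a library gave 967 to 1703 genes in N_28 (1538 with all), 58 to 180 in N_30, 134 to 322 in both and 85 to 871 by library number (456 with all, 1017 unfiltered). The cause of these moves was not tested. Under every scaling run, the median log2 change of all genes lay within 0.0119 of 0.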
